A study of Mus musculus with 6 samples.

Results

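Ribosome biogenesis genes of the nucleolus were followed here in mouse osteoclast precursors that were stimulated with RANKL, the cytokine that drives osteoclastogenesis (OCG). The set holds 10 genes, Nop56, Nolc1, Dkc1, Wdr43, Wdr75, Bop1, Polr1b, Rrp9, Rrp12 and Gnl3, out of 522 genes that carry a name in these data. The 10 genes were picked by name from a list of transcripts already called different between the conditions, all with at least a 2-fold change. Their difference between the conditions is therefore a description without a test. Each of the 10 genes was represented by 1 probe set, which summarizes probes along the exons of the gene.

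The cells were bone marrow monocytes of wild-type SV129/BL6 mice aged 6 to 12 weeks, an enriched and not a pure fraction of mononucleated precursors, with marrow of 3 mice combined per experiment. After a preculture in M-CSF, the floating cells of each experiment were centrifuged over Ficoll-Paque. The layer of mononuclear precursors was divided between a pair of dishes. The M-CSF + sRANKL dish received 20 ng/ml M-CSF, the survival factor of the monocyte lineage, and 200 ng/ml soluble RANKL (sRANKL), and the M-CSF alone dish received 20 ng/ml M-CSF. Total RNA was taken after 2 days, and 3 experiments gave 6 Affymetrix Mouse Gene 1.0 ST arrays, 3 per condition.

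Ribosomes are built in the nucleolus, where RNA polymerase I transcribes the precursor of the ribosomal RNAs (rRNA). Small nucleolar ribonucleoproteins (snoRNPs) guide the methylation and pseudouridylation of that precursor. A large early particle, the small subunit processome, folds and cleaves it, and further factors assemble the large subunit and escort both subunits out of the nucleus. Genes of this machinery are known targets of the transcription factor Myc and are high in growing cells of many tissues.

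Markers of the osteoclast and of other cells differed between the conditions. They can be read only through the named genes, all from the list of called changes, of which 341 of 522 (65.3%) were higher with M-CSF + sRANKL. All 6 named osteoclast markers of 15 listed were higher with M-CSF + sRANKL. Their summed intensity lay between 5391 and 7376 on the M-CSF + sRANKL arrays, against 610.2 to 977 on the M-CSF alone arrays. Their folds ran from 2.06 for Itgb3 to 15.8 for Mmp9, so the sum does not stand for each marker. The monocyte chemokine receptor gene Ccr2 was lower, with 1597, 2041 and 2363 with M-CSF + sRANKL in Experiments 1, 2 and 3, against 3518, 4317 and 4313 with M-CSF alone. The macrophage markers Csf1r and Adgre1 carry no name here, so their level is not known. Of 20 neutrophil and granulocyte precursor markers, 7 were named and all 7 were higher, with sums of 6512 to 10177 with M-CSF + sRANKL, against 1558 to 2452 with M-CSF alone. They were Mpo, Prtn3, Ctsg, Stfa1, Stfa2, Stfa2l1 and Cstdc5. The Stfa genes and Cstdc5 lie close together on chromosome 16, between 36156897 and 36408421, so the 7 are not independent markers. Among 25 proliferation markers, Ccnd2 and Ccne1 were named, both were higher, and their sums were 1453 to 2026 with M-CSF + sRANKL, against 454 to 647 with M-CSF alone. The stromal marker Dcn had 105 to 186 with M-CSF + sRANKL, against 45.1 to 60.6 with M-CSF alone, and no marker of T and NK, B, erythroid, or mast cells and basophils was named. The arrays differed in overall brightness, with median log2 intensities of 8.32, 8.53 and 8.45 for M-CSF + sRANKL in Experiments 1, 2 and 3 and of 8.16, 8.44 and 8.31 for M-CSF alone. The part of other cells in the values of the nucleolar genes was not tested. In such mixed RNA, more cells that express a gene and more RNA of it per cell cannot be told apart.

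All 10 nucleolar genes were brighter with M-CSF + sRANKL, and in each of them the dimmest M-CSF + sRANKL array lay above the brightest M-CSF alone array. The median of the 10 fold changes was 2.63, and the range ran from 2.03 for Bop1 to 3.41 for Dkc1. In the fit over the whole table, all 10 were among the rows called higher (limma, adjusted p under 0.05), which held 44.9% of the 2859 rows, and among the rows called and at least 2-fold higher, which held 16.1%. Rows called in either direction made up 78.2%. Complete separation of the 3 M-CSF + sRANKL arrays above the 3 M-CSF alone arrays was found in 45.2% of all rows. The choice of the genes fixed these counts, and nothing is read from them. All rows together had a median fold of 1.34, and the 331 other named genes that were higher, which met the same 2-fold limit, had a median fold of 2.62. The 2-fold size depended on scaling: 8 of the 10 genes reached it with each array centred on its median and 6 after quantile normalization. Both scalings used only the kept probe sets, most of which were called changed, so they can also take out change that those share. Over the whole table, rows called and at least 2-fold higher fell as well. They numbered 460 as deposited, 356 after centring and 346 after quantile normalization.

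Polr1b encodes a subunit of the catalytic core of RNA polymerase I, the enzyme at the head of the pathway. Its probe set, annotated to Entrez gene 20017 under an older symbol, is placed at chromosome 2, 128926750 to 128952331, plus strand. The coordinates here and for the next genes are those of the deposited list, whose genome build is not given in the sources used here. Polr1b had intensities of 401, 411 and 368 with M-CSF + sRANKL in Experiments 1, 2 and 3, against 168, 239 and 178 with M-CSF alone. The separation was the narrowest of the 10, since the dimmest M-CSF + sRANKL array was 1.54-fold above the brightest M-CSF alone array. The mean change was 1.03 ± 0.18 on the log2 scale (limma SE, n = 3 arrays per condition), or 2.04-fold. This SE and those of the next genes come from a fit without the pairing, so they include differences between experiments that both dishes share.

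Nop56 is a core protein of the box C/D snoRNPs, which carry out the methylation of rRNA. The probe set (Entrez 67134) spans chromosome 2 from 130100197 to 130105049 on the plus strand and is listed under the former symbol Nol5a. Nop56 had intensities of 1509, 1367 and 1373 with M-CSF + sRANKL, against 413, 539 and 490.5 with M-CSF alone. The M-CSF + sRANKL arrays of Experiments 2 and 3 were nearly equal, while the M-CSF alone array of Experiment 1 was the dimmest of the 6. The change was 1.57 ± 0.16 (log2, SE), or 2.96-fold.

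Dkc1 encodes dyskerin, the pseudouridine synthase of the H/ACA snoRNPs and a component of telomerase, and maps to chromosome X from 72341255 to 72355109 on the plus strand (Entrez 245474). It had intensities of 914, 885 and 1015 with M-CSF + sRANKL, against 193, 372 and 288 with M-CSF alone. Among the 10 genes Dkc1 showed both the widest change and the widest scatter of M-CSF alone arrays, with a log2 SD of 0.48 there, against 0.10 on the M-CSF + sRANKL arrays. The change averaged 1.77 ± 0.25 (log2, SE), or 3.41-fold, and was 4.75-fold in Experiment 1, 2.38-fold in Experiment 2 and 3.53-fold in Experiment 3.

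Nolc1 encodes Nopp140, a phosphoprotein that shuttles between nucleolus and Cajal bodies and chaperones both classes of snoRNP (chromosome 19, 46150353 to 46160020, plus strand, Entrez 70769). Its intensities were 1055, 947 and 944 with M-CSF + sRANKL, against 311, 368 and 322 with M-CSF alone. These values were tight within each condition, with log2 SDs of 0.09 for M-CSF + sRANKL and 0.13 for M-CSF alone, and the dimmest M-CSF + sRANKL array was 2.56-fold above the brightest M-CSF alone array, the widest gap of the 10 genes. Nolc1 changed 2.95-fold (log2 1.56 ± 0.14, SE), and its difference from the change of Nop56 was 0.01 ± 0.09 (log2, SD over the 3 experiments).

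Wdr43 and Wdr75 are subunits of UtpA, the complex that meets the nascent rRNA precursor first and starts assembly of the small subunit processome. Wdr43 lies on chromosome 17 from 71965235 to 72007235 (plus strand, Entrez 72515) and Wdr75 on chromosome 1 from 45852311 to 45880460 (plus strand, Entrez 73674). Wdr43 had 1796, 1618 and 1686 with M-CSF + sRANKL, against 535, 732 and 663 with M-CSF alone. Wdr75 had 529.7, 549.6 and 543 with M-CSF + sRANKL, against 199, 294 and 254 with M-CSF alone. The 3 M-CSF + sRANKL arrays of Wdr75 lay closer together than those of any other of the 10 genes (log2 SD 0.03), and its scatter sat in the M-CSF alone arrays (log2 SD 0.28). The changes were 2.66-fold for Wdr43 (log2 1.41 ± 0.16, SE) and 2.20-fold for Wdr75 (1.14 ± 0.18).

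Rrp9 is the WD-repeat protein that binds the U3 snoRNA, the guide RNA of the first cleavages of the precursor (chromosome 9, 106379640 to 106387748, plus strand, Entrez 27966). Rrp9 had 679, 686 and 569 with M-CSF + sRANKL, against 261, 341 and 258 with M-CSF alone. Experiment 3 was the dimmest in both conditions. The change was 2.26-fold (log2 1.18 ± 0.17, SE).

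Bop1 belongs to the PeBoW complex, which is needed for processing of the large subunit rRNA (chromosome 15, 76283425 to 76307699, minus strand, Entrez 12181). Bop1 had 1022, 993 and 924 with M-CSF + sRANKL, against 452, 528 and 471 with M-CSF alone. At 2.03-fold (log2 1.02 ± 0.14, SE) it was the gene nearest to the 2-fold limit of the list, followed by Polr1b. Genes just below the limit carry no name here, so no counterpart from outside can be given.

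Gnl3 encodes nucleostemin, a nucleolar GTPase that takes part in large subunit maturation and is abundant in stem and cancer cells. The probe set is placed at chromosome 14, 31825619 to 31832247, minus strand (Entrez 30877). Gnl3 had 1013, 1358 and 1309 with M-CSF + sRANKL, against 292, 457 and 417 with M-CSF alone. Gnl3 changed 3.19-fold (log2 1.67 ± 0.22, SE of the unpaired fit). Experiment 1 was the dimmest in both conditions, and the change within experiments was steady at 3.47-, 2.97- and 3.14-fold (log2 SD 0.11). Gnl3 was the exception to the tight M-CSF + sRANKL arrays, with a log2 SD of 0.23 there and of 0.34 on the M-CSF alone arrays.

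Rrp12 is a HEAT-repeat protein that helps both subunits leave the nucleus (chromosome 19, 41937341 to 41970663, minus strand, Entrez 107094). Rrp12 had 457, 433 and 404 with M-CSF + sRANKL, against 169, 176 and 152 with M-CSF alone. It had the least variable change of the 10, 2.70-, 2.46- and 2.66-fold in Experiments 1, 2 and 3 (SD 0.07 on the log2 scale), with a mean of 2.61-fold (log2 1.38 ± 0.14, SE).

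**Figure D1:**
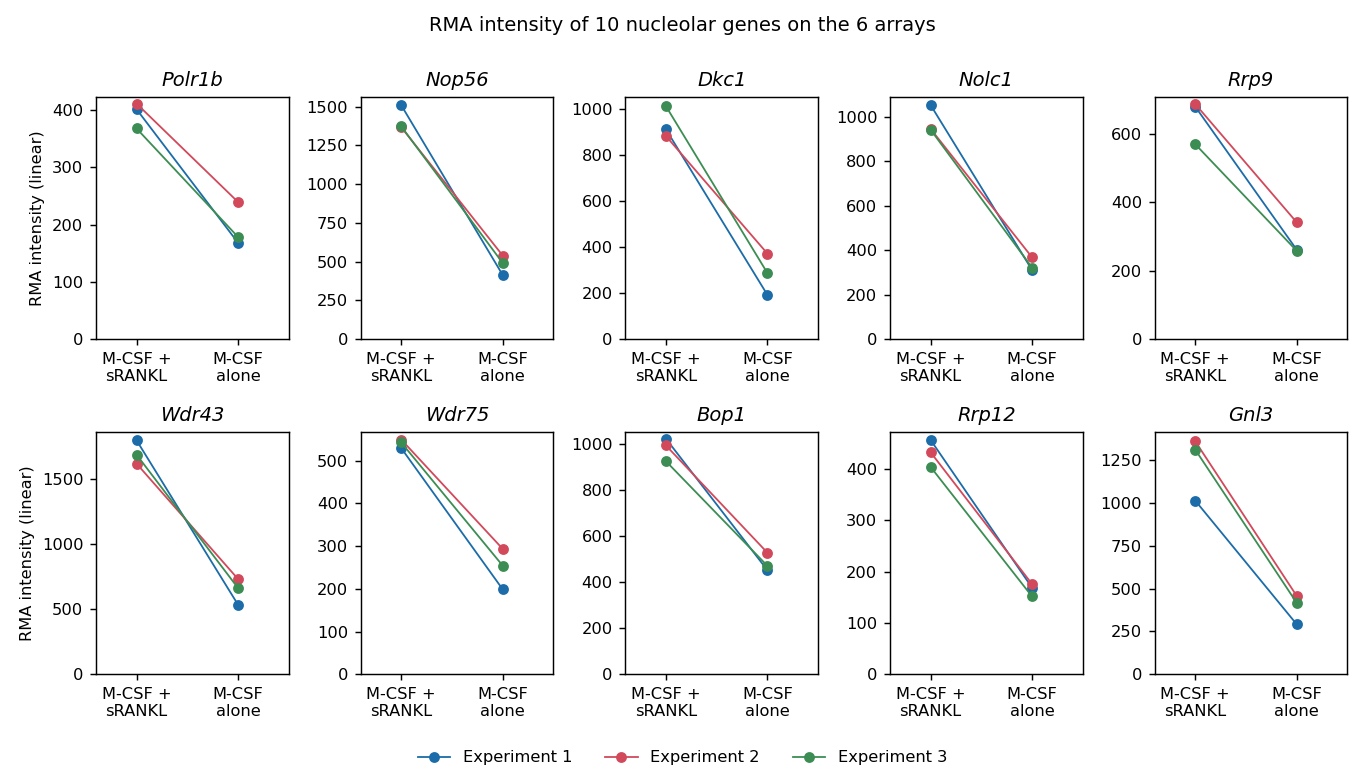
RMA intensity (linear axis from 0) of the 10 nucleolar genes with M-CSF + sRANKL and with M-CSF alone, with a line joining the 2 dishes of an experiment. In every panel the 3 M-CSF + sRANKL points lie above the 3 M-CSF alone points, and the M-CSF alone point of Experiment 2 is the highest of its condition.

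By size of change the order was Dkc1, Gnl3, Nop56, Nolc1, Wdr43, Rrp12, Rrp9, Wdr75, Polr1b and Bop1, at ranks 92 to 329 of the 522 named genes. Neighbours in this order lay close together, and no pair was tested. Of the 9 neighbouring pairs, 3 differed by more than the SD of the difference over the 3 experiments, each in the same direction in all 3. These were Nolc1 over Wdr43 (0.15 ± 0.11, log2, SD), Rrp12 over Rrp9 (0.20 ± 0.13) and Wdr75 over Polr1b (0.11 ± 0.06). After quantile normalization Wdr75 and Polr1b no longer differed beyond that spread (0.01 ± 0.10), while Polr1b over Bop1 did (0.25 ± 0.16). A difference above the SD of 3 experiments is a loose mark, and the order was read from the same values. It therefore establishes no rank between neighbours. The ends of the order differed by 0.75 ± 0.38, with Dkc1 above Bop1 by 1.07, 0.34 and 0.84 in Experiments 1, 2 and 3.

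The size of the change followed the experiment in the same way in all 10 genes. Each of them changed the most in Experiment 1, less in Experiment 3 and the least in Experiment 2, an order that 33.5% of all 2859 rows had. The median fold of the 10 genes was 3.01 in Experiment 1, 2.29 in Experiment 2 and 2.60 in Experiment 3. The medians of all rows, 1.44, 1.15 and 1.32, had that order too. The 6 osteoclast markers Acp5, Ctsk, Itgb3, Atp6v0d2, Mmp9 and Car2 did not follow it: their median folds were 4.29, 8.21 and 4.67, none of the 6 had the order of the nucleolar genes, and 5 changed the most in Experiment 2. The 7 neutrophil and granulocyte precursor markers had median folds of 2.52, 4.96 and 6.18, and all 7 changed the least in Experiment 1. Among the 331 other named genes that were higher with M-CSF + sRANKL, 85 (25.7%) had the order of the nucleolar genes. After each array was centred on its median, 9 of the 10 nucleolar genes and 28.5% of all rows had the order, and after quantile normalization 7 of the 10 and 28.8%. These counts describe 3 experiments and genes read from the same 6 arrays, and carry no test.

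**Figure D2:**
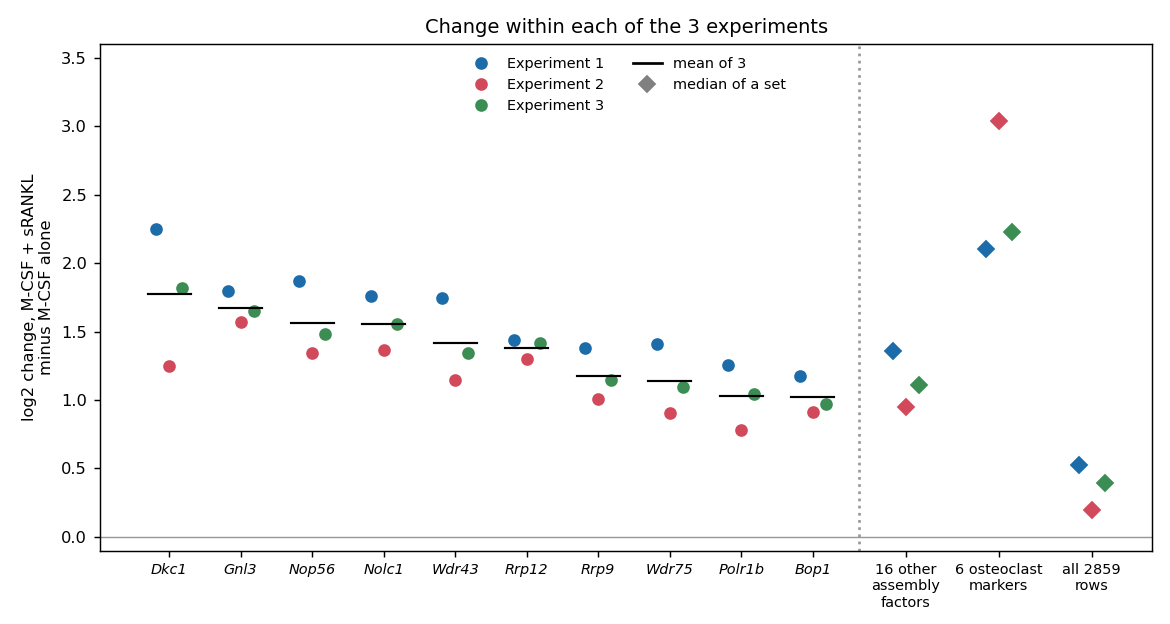
Log2 change (M-CSF + sRANKL minus M-CSF alone) of each nucleolar gene in Experiments 1, 2 and 3, with the mean as a bar, and on the right the median of 3 sets in each experiment as diamonds. Experiment 1 is the highest and Experiment 2 the lowest point for all 10 genes, while the median of the 6 osteoclast markers was highest in Experiment 2 (log2 3.04).

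Within the conditions, the scatter of the nucleolar genes was larger in the M-CSF alone dishes, though by little in Rrp12 (log2 SD 0.11, against 0.09 with M-CSF + sRANKL). The SD over 3 arrays was larger with M-CSF alone in all 10 genes, with a median of 0.09 for M-CSF + sRANKL and of 0.23 for M-CSF alone (log2). Over all rows the median SD was 0.17 for M-CSF + sRANKL and 0.26 for M-CSF alone, and 72.7% of rows had the larger SD with M-CSF alone. With M-CSF alone, all 10 genes were brightest in Experiment 2, as were 55.2% of all rows, and 8 were dimmest in Experiment 1, as were 51.3%. The exceptions were Rrp9 and Rrp12, which were dimmest in Experiment 3. The median deviation of the 10 genes from their condition mean was -0.20, 0.23 and 0.00 on the M-CSF alone arrays of Experiments 1, 2 and 3, against -0.10, 0.12 and 0.03 for all rows. The array medians over the kept probe sets had the same order. With each array centred on its median, 5 of the 10 genes were dimmest in Experiment 1, against 37.7% of all rows. On the M-CSF + sRANKL arrays the median deviations of the 10 genes were 0.07, 0.01 and -0.05, against -0.07, 0.06 and 0.01 for all rows. There the Experiment 1 array was below the condition mean in Dkc1, Wdr75 and Gnl3 and above it in the other 7 genes.

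**Figure D3:**
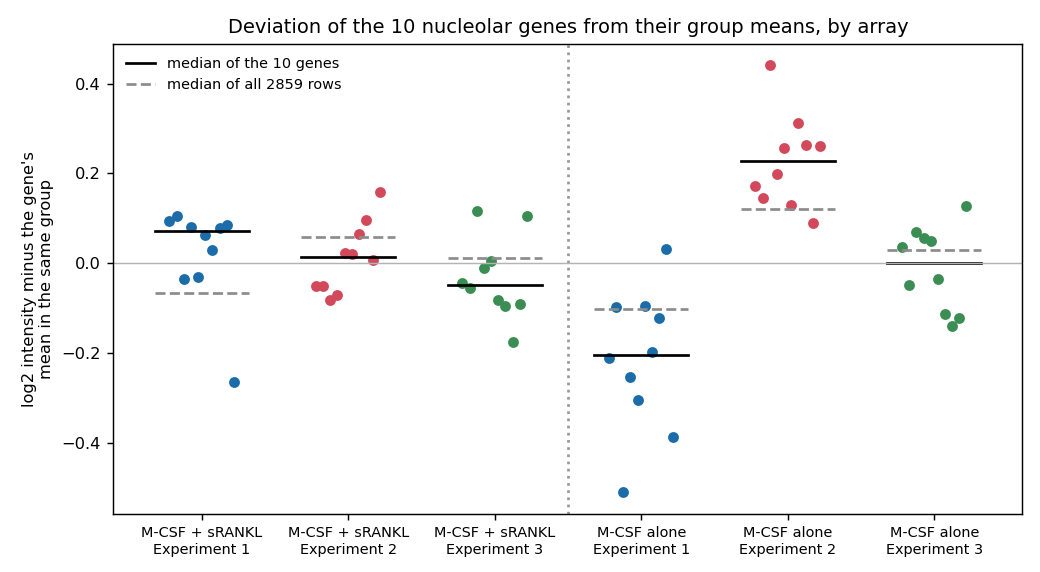
Log2 intensity of each nucleolar gene minus its mean over the 3 arrays of the same condition, for the 6 arrays, with the median of the 10 genes (solid bar) and of all 2859 rows (dashed bar). The points lie mostly within 0.2 of zero on the M-CSF + sRANKL arrays, with Gnl3 at -0.26 in Experiment 1, and spread from -0.51 to 0.44 on the M-CSF alone arrays, both ends set by Dkc1.

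The rest of the pathway was named only in part. Lists of 204 genes for rRNA synthesis, snoRNPs, subunit assembly and export, snoRNA host genes and Myc with its partners held 18 named genes besides the 10, of which 17 were called higher and 1 lower (limma, adjusted p under 0.05). Every named gene came from a list of called changes, so being called was fixed by that choice, and 65.3% of all 522 named genes were higher. A gene outside that list has no name in these data, so an absent name does not mean an unchanged gene. Of these genes, 16 belong to the lists of assembly factors and all 16 were higher, with a median fold of 2.21. Their median was 2.56-, 1.93- and 2.16-fold in Experiments 1, 2 and 3. The same order of experiments as in the 10 genes was found in 13 of the 16, in 10 after centring and in 9 after quantile normalization. The SD was larger with M-CSF alone in 15 of the 16. With M-CSF alone all 16 were brightest in Experiment 2 and dimmest in Experiment 1, so these traits were not particular to the 10 genes.

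The UtpA complex was the best covered assembly, with 4 of 6 genes named and all 4 higher. Besides Wdr43 and Wdr75 these were Utp4, a WD-repeat subunit, and Heatr1, its large HEAT-repeat subunit. Utp4 had 1027, 1103 and 1127 with M-CSF + sRANKL, against 342, 483 and 431 with M-CSF alone, a 2.62-fold change. Heatr1 had 1233, 943 and 1065 with M-CSF + sRANKL, against 448, 517 and 514 with M-CSF alone, or 2.18-fold. None of the 6 UtpB genes and none of the 17 exosome and rRNA trimming genes was named. In the list of the U3 snoRNP and the processome, 3 of 37 genes were named, Rrp9 and the small subunit factors Nol10 (2.43-fold) and Bysl (2.35-fold).

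Among large subunit assembly factors, 7 of 47 genes were named. The widest changes were those of the RNA helicase Ddx21, at 2.97-fold, and of the rRNA methyltransferase Nop2, at 2.80-fold. Ddx21 had 1484, 1401 and 1410.1 with M-CSF + sRANKL, against 366, 585 and 521 with M-CSF alone. Like Nop56 and Wdr43, it had close M-CSF + sRANKL values and a dim M-CSF alone array in Experiment 1. The others were Ftsj3 (2.25-fold), another rRNA methyltransferase, the nucleolar protein Mybbp1a (2.24), Mrto4 (2.11), Sdad1 (2.09) and Heatr3 (2.07). Mrto4 had a further probe set placed on another chromosome, at 2.06-fold, so the signal of near-identical copies may be shared between them.

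Of 20 export and late maturation factors, 5 were named. Tsr1, which acts on the late small subunit, had 954, 966 and 1034 with M-CSF + sRANKL, against 237, 364 and 356 with M-CSF alone, and its 3.14-fold change was the widest of the 16 assembly factors. Next to Rrp12 the others were the ATPase Mdn1 (2.05-fold), the export adaptor Nmd3 (2.04) and Pno1 (2.02), all close to the 2-fold limit of the list. The nucleolar GTPase Gtpbp4 was 2.01-fold higher and completes the 16. Of 15 genes for RNA polymerase I and its factors Polr1b was the sole named gene, as were Nop56 of 9 box C/D genes, Dkc1 of 6 H/ACA genes, Nolc1 of 7 transport and scaffold genes and Bop1 of 3 PeBoW genes.

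Outside the assembly factors, the snoRNA host gene Snhg1 and the Myc-network gene Mxd4 were named. Snhg1 is a noncoding gene whose introns hold box C/D snoRNAs. Its probe set covers a stretch (chromosome 19, 8799831 to 8799899) as short as the snoRNA genes enclosed in the 10 genes, so the signal may come from the host RNA or from a snoRNA within it. This probe set had 649.5, 824 and 793 with M-CSF + sRANKL, against 242, 349 and 247 with M-CSF alone, or 2.73-fold. Its other probe sets gave 4.43- and 2.88-fold. Mxd4, a partner of Max that represses transcription at the sites Myc and Max bind, was the single gene that was lower. Mxd4 had 306, 312 and 292 with M-CSF + sRANKL, against 1043, 922 and 967 with M-CSF alone, a ratio of 0.31. Myc itself was among the 12 other genes of that list of 13 that carry no name here.

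**Figure D4:**
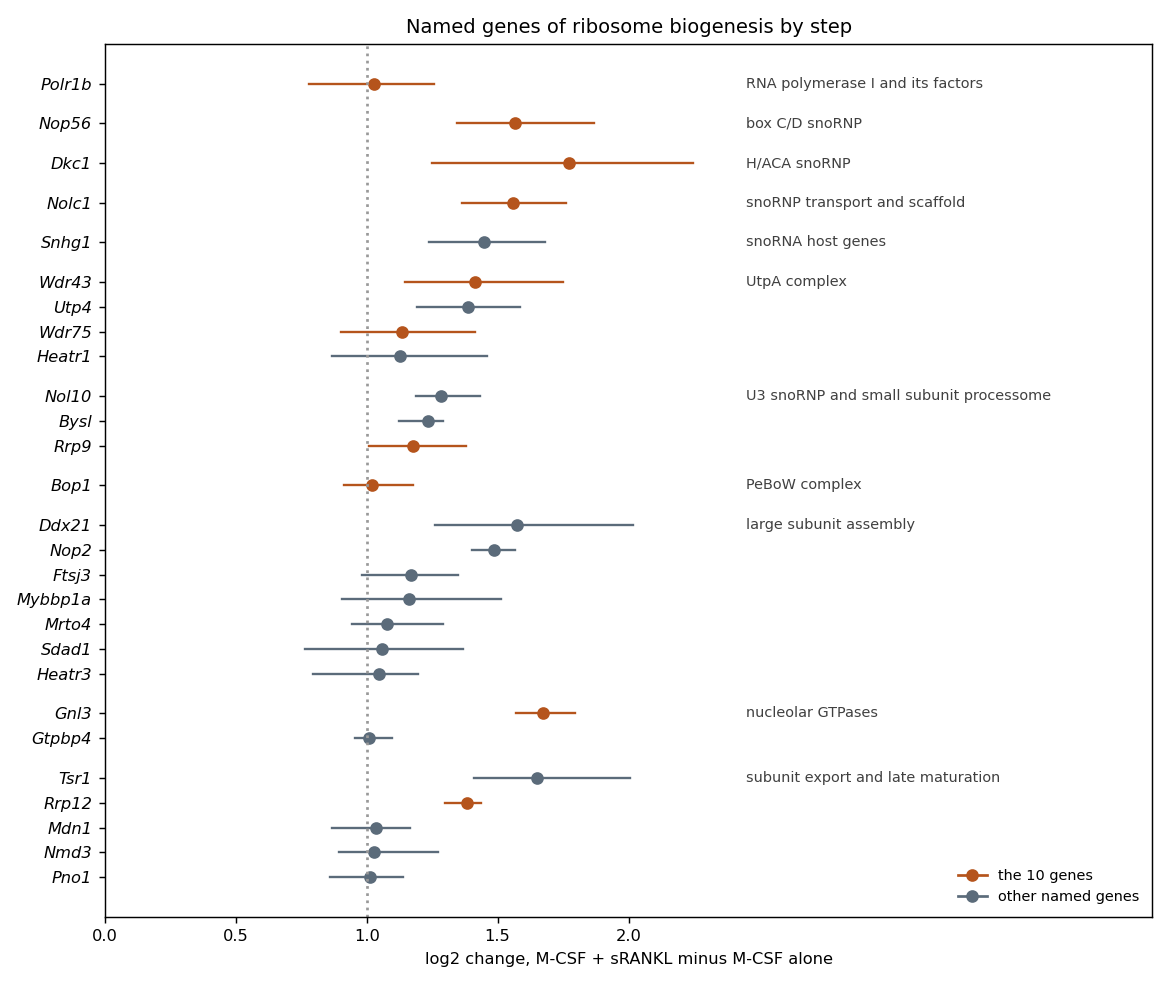
Log2 change (M-CSF + sRANKL minus M-CSF alone) of the 27 named ribosome biogenesis genes that were higher, grouped by step, with points for the mean and lines from the lowest to the highest of the 3 experiments. The dotted line marks a 2-fold change, and Dkc1 has the longest line, while Rrp12 among the 10 genes has the shortest.

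Among the other named genes, all of them already called changed, those whose pattern over the 6 arrays lay nearest to the mean profile of the 10 were Eef1e1, Utp4, Mettl1, Ybx3 and Naa25. Likeness was the Euclidean distance between log2 values centred on each gene's mean over 6 arrays, and these 5 lay at 0.12, 0.16, 0.17, 0.18 and 0.19. Within the set the distance was 0.14 for Wdr43, the most typical gene, and 0.64 for Dkc1, the least typical. Eef1e1, an auxiliary factor of the aminoacyl-tRNA synthetase complex, had 1387, 1463 and 1307 with M-CSF + sRANKL, against 478, 641 and 567 with M-CSF alone (2.48-fold). Mettl1, a tRNA methyltransferase, changed 2.70-fold, the cold shock protein gene Ybx3 2.44-fold and Naa25, a subunit of an N-terminal acetyltransferase, 2.63-fold.

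Some of the genes carry snoRNA genes within them. By the RefSeq annotation (GRCm38.p6), 4 of the 10 genes enclose snoRNA genes, against 378 of 21900 protein-coding genes (1.73%), a background that was not filtered on intensity or change as the list was. The other 6, Nolc1, Wdr75, Bop1, Polr1b, Rrp9 and Rrp12, enclose none in that annotation. Nop56 encloses 5, among them Snord57 and Snord110, Wdr43 encloses 3, with Snord53 and Snord92 among them, Gnl3 encloses 3, with Snord19 and Snord69 among them, and Dkc1 encloses 1. Most vertebrate snoRNAs are cut out of introns of host genes of this kind. Strand was not compared, no snoRNA level of these genes was read here, and 10 genes are few, so the share is a description.

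Promoter sequences of the 10 genes were read as a description. The genes were picked from a list of called changes, so their common rise is no sign of a shared control. RefSeq (GRCm38.p6) gave a window of 250 bases before to 50 bases after the start site for 8 of the 10, each with the start site that the table uses, and Bop1 and Rrp12 are named only. The 4 windows printed are those of Dkc1, the gene with the widest change and the sole TATA match, Wdr43, the most typical gene and the sole E-box match, Nolc1, with the E-box variant, and Gnl3, the richest in GC. Capitals mark any match, on either strand, to the E-box CACGTG (bound by Myc and Max among others), its variant CACGCG, the ETS core CCGGAA, the CCAAT box, the GC box GGGCGG or the TATA box TATAAA. Sequences run 5′ to 3′ along the strand of the gene.
Dkc1, chrX:75095604-75095903, plus strand: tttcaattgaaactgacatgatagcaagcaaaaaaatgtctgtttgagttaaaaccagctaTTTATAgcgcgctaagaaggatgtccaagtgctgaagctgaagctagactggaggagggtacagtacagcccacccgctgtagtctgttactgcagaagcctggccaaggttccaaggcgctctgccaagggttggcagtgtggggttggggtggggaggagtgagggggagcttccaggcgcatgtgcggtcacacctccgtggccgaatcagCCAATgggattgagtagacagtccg
Wdr43, chr17:71615965-71616264, plus strand: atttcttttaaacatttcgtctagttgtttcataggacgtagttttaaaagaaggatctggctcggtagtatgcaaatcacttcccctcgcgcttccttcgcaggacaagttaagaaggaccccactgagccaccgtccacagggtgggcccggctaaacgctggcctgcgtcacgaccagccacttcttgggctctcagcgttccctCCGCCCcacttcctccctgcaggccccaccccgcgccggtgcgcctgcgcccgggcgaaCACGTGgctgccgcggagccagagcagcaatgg
Nolc1, chr19:46075597-46075896, plus strand: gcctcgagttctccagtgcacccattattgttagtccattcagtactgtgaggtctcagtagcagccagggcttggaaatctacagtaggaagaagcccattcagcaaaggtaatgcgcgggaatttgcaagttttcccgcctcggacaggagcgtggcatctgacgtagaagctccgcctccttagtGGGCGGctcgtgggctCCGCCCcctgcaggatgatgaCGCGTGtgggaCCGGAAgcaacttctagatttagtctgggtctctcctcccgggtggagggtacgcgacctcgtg
Gnl3, chr14:31019082-31019381, minus strand: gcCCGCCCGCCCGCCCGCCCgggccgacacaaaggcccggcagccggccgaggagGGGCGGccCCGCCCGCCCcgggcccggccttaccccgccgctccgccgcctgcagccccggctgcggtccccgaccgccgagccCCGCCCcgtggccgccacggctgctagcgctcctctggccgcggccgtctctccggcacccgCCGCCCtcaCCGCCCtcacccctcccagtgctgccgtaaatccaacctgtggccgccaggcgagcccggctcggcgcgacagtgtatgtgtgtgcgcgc

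The motifs were spread unevenly over the windows. The E-box of Wdr43 lies from 17 to 22 bases after the start-site base, and the variant in Nolc1 begins 25 bases before it. Gnl3 holds 10 GC boxes, some of which overlap, in a window of 80.3% GC, while Dkc1 holds none and has its TATA match 189 bases upstream, far from the usual place of that box. The E-box was present in 1 of the 8 windows, against 7.84% of 21263 protein-coding promoters and 10.3% of 496 promoters of the other named genes. GC boxes were present in 6 of 8, against 46.2% of protein-coding promoters and 52.4% of the other named genes, and CCAAT boxes in 4 of 8, against 38.2% and 36.7%. The variant CACGCG was present in 1 of 8, against 12.1% and 14.5%, the ETS core in 2 of 8, against 18.7% and 15.7%, and TATAAA in 1 of 8, against 12.6% and 12.5%. Over all 32851 promoters, noncoding genes included, the shares were 7.15% for the E-box, 9.27% for its variant, 14.9% for the ETS core, 37.4% for CCAAT, 35.7% for the GC box and 13.6% for TATAAA. The 8 windows had a median GC content of 58.4% and 20 CpG, against 56.3% and 13 for the protein-coding promoters. With 8 windows these shares were not tested, and a match is neither a bound site nor its lack a sign of an unbound gene.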

How the data were processed

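Before deposit, the authors processed 6 array scans with RMA, in R 2.71 as the submitters' notes give it, and deposited linear intensities, 1 column per array. The table holds 2890 probe sets, and the rules by which they were kept are not given in the sources used here. Names came from a second deposited table of 656 probe sets that the authors had called changed. Of these 553 had a symbol, and 62 symbols were updated through Entrez numbers against RefSeq. Its columns of fold changes and p-values were not used. For the 12 genes with several probe sets the one with the highest mean was kept, which left 2859 rows.

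The deposited intensities were taken to log2, and limma 3.58.1 (R 4.3.3, lmFit then eBayes) compared M-CSF + sRANKL with M-CSF alone in an unblocked fit, with Benjamini-Hochberg adjustment over all rows and a limit of 0.05. The code of the fit was run on simulated rows with independent noise and no pairing. That run checked the code and says nothing about the error rate on these paired arrays. Summaries used Python 3.11.15 with numpy 2.4.6 and pandas 2.3.3, and figures matplotlib 3.10.9. The number of the experiment pairs the samples, because both dishes held cells of the same pool. Deviations from the condition means correlated at 0.605, 0.564 and 0.645 within experiments. The number of arrays, 3 per condition, limits the precision, and no probe-level signal was used here. The 10 genes, the pathway and marker lists and the alternatives were chosen with earlier results of these data known. Named in the text were the 10 genes, all named genes of the pathway lists, the 5 genes nearest in pattern and named markers, apart from a result that is not reported here.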

Additional observations from a re-analysis of the deposited data

How the results depend on the processing

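The median log2 change of the 10 nucleolar genes was 1.40, and was 1.27 with each array centred on its median and 1.19 after quantile normalization, the setting that moved it by more than the spread over the experiments. The median change of all rows was 0.42 as deposited, 0.29 after centring and 0.21 after quantile normalization. Leaving out 1 array at a time gave medians of 1.34 to 1.47. All 10 genes stayed called higher in each setting run, a count that their choice largely fixed. In these settings 1015 to 1475 of all rows were called higher. The 2-fold limit was less secure. It was reached by 8 of 10 after centring and by 6 after quantile normalization (lowest Bop1, 1.64-fold). Both scalings used only the kept probe sets, most of them called changed, so part of that fall can be change that those share. The limit was reached by 9 without M-CSF + sRANKL of Experiment 1 or of Experiment 2. It was reached by 7 without M-CSF alone of Experiment 1 and by 9 without M-CSF alone of Experiment 3. The experiment number as a replicate block raised the rows called from 2235 to 2613 and those also 2-fold changed from 776 to 877, and altered no call among the 10 genes or the 18 other pathway genes, which kept 17 higher and 1 lower under every alternative. Rows changed at least 2-fold split into 460 higher and 316 lower, against 356 higher and 569 lower after centring and 346 higher and 462 lower after quantile normalization. Their number ranged from 713 to 999 when 1 array was left out. Rows called ranged from 1864 to 2348 in the same runs. The remaining limits are 3 arrays per condition, names for called genes only, and values normalized before deposit.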
